A study of Mus musculus with 12 samples.

Results

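Protocadherins are cell adhesion proteins of the cadherin superfamily, and their genes were followed here in the brains of mice after stroke. The count table listed 70 genes whose mouse symbol begins with *Pcdh*. The 69 with at least 50 counts over all 12 mice were kept, of 49315 genes in the table. The rule used symbol and total count and not the difference between groups, though it was set with earlier results of these data known. They comprise 14 genes of the alpha cluster, 21 of the beta cluster, 22 of the gamma cluster and 12 non-clustered genes that lie elsewhere. *Pcdhb1*, with 47 counts in all, was the one gene outside the limit, and *Pcdhga10*, with 107, was the nearest gene inside it. The kept genes held 423904 counts, 0.237% of all counts.

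All 12 mice were male CD45.1 Pep Boy recipients, irradiated at 8 to 12 weeks of age with the head shielded and given mixed bone marrow (BM). In the group called WT, 10% of the transplanted cells came from CD45.2 *Tet2*+/+ donors, and in the group called *Tet2*-KO, 10% came from CD45.2 *Tet2*-/- donors. The remaining 90% in both groups were CD45.1 *Tet2*+/+ cells. A model of clonal hematopoiesis is thus confined to blood cells, while the neurons and glia of both groups keep *Tet2*, so that its level in brain does not check the labels. At 8 to 10 weeks after transplantation the right middle cerebral artery was occluded for 30 min, and brains were taken at 14 d post-stroke from 6 mice per group. There was no sham group among these samples. The treatment label was the same for all 12 mice and named control cells, whereas titles and genotype labels gave *Tet2*-KO for 6 of them, and the latter were used.

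The clustered protocadherin genes stand in tandem on 1 chromosome. Each variable exon of the alpha and gamma clusters has its own promoter and is spliced to constant exons shared by the cluster, whereas each beta gene is a single large coding exon. A neuron expresses a combination of these promoters, chosen with the help of CTCF, cohesin and DNA methylation, and the resulting surface proteins bind the same isoforms on other cells, which serves self-recognition of dendrites and axons. The C-type genes at the end of the alpha and gamma clusters are expressed more constitutively. The non-clustered delta protocadherins have promoters of their own and act in axon growth, synapse formation and cell sorting in the brain.

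Sequence upstream of the start was available for 9 of the 12 non-clustered genes, from RefSeq on GRCm38.p6. Of the 6 non-clustered genes with an unadjusted p below 0.05 between groups (below), 4 are shown, without *Pcdh1* and *Pcdh11x*. They are shown for their content of CG dinucleotides, the sites of DNA methylation, in which the 4 stretches differ. Capitals mark CG dinucleotides and, in *Pcdh15*, also the letters TATAAA. Each runs 5′ to 3′ toward the start, on the strand of the gene, and ends at the last base before it, except that of *Pcdh7*, of which only the first 136 bases of the 250 are shown because the rest of the window lies in an annotated exon of the gene. They are chr3:45378148-45378397 (forward) for *Pcdh10*, chr14:93890680-93890929 (reverse) for *Pcdh9*, chr5:57717831-57717966 (forward) for *Pcdh7* and chr10:73821617-73821866 (forward) for *Pcdh15*, where the RefSeq start lies inside the longer gene of GENCODE.
Pcdh10: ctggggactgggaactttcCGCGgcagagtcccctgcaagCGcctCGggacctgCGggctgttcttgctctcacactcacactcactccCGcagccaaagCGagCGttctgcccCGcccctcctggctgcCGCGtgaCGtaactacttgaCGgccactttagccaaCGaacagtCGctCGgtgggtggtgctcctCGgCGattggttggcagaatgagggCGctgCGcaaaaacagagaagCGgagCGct
Pcdh9: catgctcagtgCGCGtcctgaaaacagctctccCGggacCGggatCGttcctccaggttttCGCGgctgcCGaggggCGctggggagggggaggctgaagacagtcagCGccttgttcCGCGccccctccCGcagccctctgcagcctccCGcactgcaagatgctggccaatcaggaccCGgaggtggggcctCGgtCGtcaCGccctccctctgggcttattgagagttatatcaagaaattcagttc
Pcdh7: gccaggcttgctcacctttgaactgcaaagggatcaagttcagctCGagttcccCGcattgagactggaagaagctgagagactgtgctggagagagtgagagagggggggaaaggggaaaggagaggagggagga
Pcdh15: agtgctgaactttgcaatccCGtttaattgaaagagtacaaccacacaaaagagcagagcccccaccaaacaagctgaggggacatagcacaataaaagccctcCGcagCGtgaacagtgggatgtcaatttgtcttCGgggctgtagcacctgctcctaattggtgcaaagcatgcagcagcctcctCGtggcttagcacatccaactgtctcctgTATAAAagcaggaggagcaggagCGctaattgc

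*Pcdh10* held 22 CG in the 250 bases before its start, and 14.8% of the 32851 starts in the RefSeq table held as many. *Pcdh9* held 18, reached by 21.7% of starts, *Pcdh7* held 7 in its whole window, of which 2 are in the stretch shown, reached by 46.3%, and *Pcdh15* held 6, the median of all starts. The letters CCAAT, on either strand, occurred in 8 of the 9 protocadherin windows and in 33.8% of all starts, with *Pcdh7* the exception. TATAAA occurred upstream of *Pcdh15*, 33 bases before its start, and of *Pcdh8*, against 12.4% of all starts. These are matches of letters, and methylation was not measured in these samples. The noncoding genes *2610316D01Rik* and *4932441J04Rik* have exons in the windows of *Pcdh10* and *Pcdh7*.

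The gene structure decides what these counts can show. In the mm10 genome (GRCm38), the kept genes of the alpha cluster span chr18:36930184-37187661, those of the beta cluster chr18:37294812-37524479 and those of the gamma cluster chr18:37661793-37841873, all on the forward strand. A read in a constant exon belongs to many genes at once, and the authors counted only reads assigned to 1 gene. For an alpha gene, between 7.0% and 51.4% of the annotated exon bases overlap no other gene on either strand, with a median of 46.4%. In the beta cluster 18 of 21 genes have exons that are entirely their own. *Pcdhga10* has no base of its own once the antisense gene *Gm26672* is considered, and *Pcdha4* has only 404, so their 107 and 226 counts cannot be read as low expression. The strand setting of the counting is not given in the sources used here. It is thus not known whether reads in the overlap of a gene with an antisense partner were counted or left out. Such partners are *BC037039* at *Pcdhgc3* and *4932441J04Rik* at *Pcdh7*. *Pcdhgb8* is annotated as a polymorphic pseudogene.

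Levels are given as CPM, counts relative to the TMM-scaled size of each library, and differences as the log2 fold change of *Tet2*-KO over WT. To compare genes with each other, the mean CPM over the 12 mice was divided by the length of exon that overlaps no other gene on either strand, as suits counting without strand. On that scale *Pcdh9* stood highest at 40.8 CPM per kb, followed by *Pcdh1* at 33.7, *Pcdhgc3* at 28.4, *Pcdhgc5* at 21.5 and *Pcdh7* at 19.8. If the counting used strand, so that only overlaps on the same strand take exon away, *Pcdhgc3* was at 15.3 and *Pcdh7* at 15.6, both below *Pcdhgc5* at 21.5 and *Pcdh10* at 17.3, whereas *Pcdh9* and *Pcdh1* still stood highest. The beta genes lay between 1.28 and 4.48 CPM per kb (*Pcdhb17* the highest), and the alpha genes outside the C-type between 1.08 for *Pcdha1* and 4.62 for *Pcdha12*. In contrast, *Pcdhac2* reached 12.2 CPM per kb. The gamma-A genes, apart from *Pcdhga10*, lay between 3.38 and 13.4 and the gamma-B genes between 4.60 and 10.5. The 13.4 is that of *Pcdhga11*, which was at 6.39 on the same-strand length, and there *Pcdha11* was at 0.668 in place of 2.43 and *Pcdhb12* at 0.790 in place of 2.16. On both lengths the C-type genes *Pcdhac2*, *Pcdhgc3* and *Pcdhgc5* lay above the other genes of their clusters, whereas *Pcdhac1* at 3.27 and *Pcdhgc4* at 8.08 lay within their range.

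**Figure D1:**
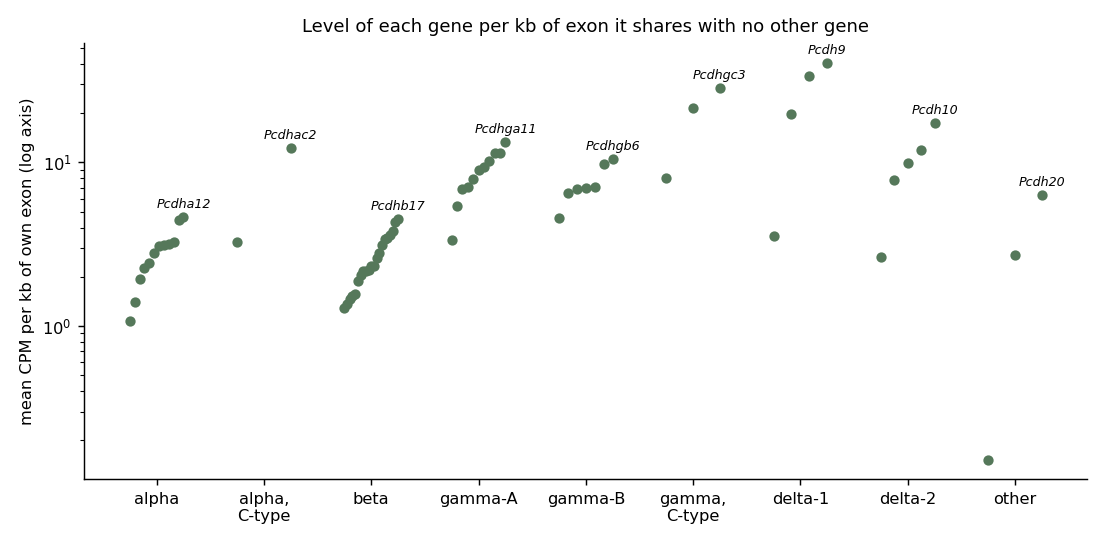
Mean level over 12 mice of each kept protocadherin gene with own exon, in CPM per kb of exon that overlaps no other gene on either strand (log axis), by subfamily; each point is a gene and the highest of each subfamily is named. *Pcdh9* is highest at 40.8, and *Pcdh12* lowest at 0.153.

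Of the 69 genes, 67 passed the expression filter and were tested by edgeR (quasi-likelihood F test) among all 20290 genes that passed it. *Pcdh12* and *Pcdhga10* did not pass. No protocadherin gene passed the adjusted threshold of 0.05, where 0.0246% of all tested genes did, and the smallest adjusted p was 0.110. With *Tet2*-KO BM cells, 15 genes were higher at an unadjusted p below 0.05, 22.4% of those tested against a background of 10.8%, and 1 was lower against a background of 12.2%. The 15 were higher by 9.76% to 28.5%. The log2 fold change was above 0 in 56 of 67 genes, against 52.3% of all genes, and its median was 0.13 against 0.010 over all genes. In *Pcdhb11* and *Pcdhga1* all 6 *Tet2*-KO mice were above all 6 WT mice, a separation found in 0.453% of all genes. No protocadherin gene had all *Tet2*-KO mice below all WT mice, which 0.641% of all genes had. The DESeq2 Wald test placed 2 protocadherin genes past its adjusted threshold, *Pcdh10* and *Pcdhb11*, each higher with *Tet2*-KO BM cells. Of all genes with an adjusted p, 1.12% were past it and higher. Limma-voom with quality weights placed 5 past it and higher, *Pcdhb11*, *Pcdhgc5*, *Pcdh7*, *Pcdh10* and *Pcdhac2*, against 2.80% of all genes. With edgeR and without *Tet2*-KO replicate 5 the number past it and higher was 6, these 5 and *Pcdh15*, against 3.70% of all genes. Genes past these thresholds and lower are not in these percentages. The number higher at an unadjusted p below 0.05 was 24 with upper quartile scaling (background 14.8%), 17 without *Tet2*-KO replicate 5 (background 13.4%) and 11 without replicate 6 (background 8.24%).

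**Figure D2:**
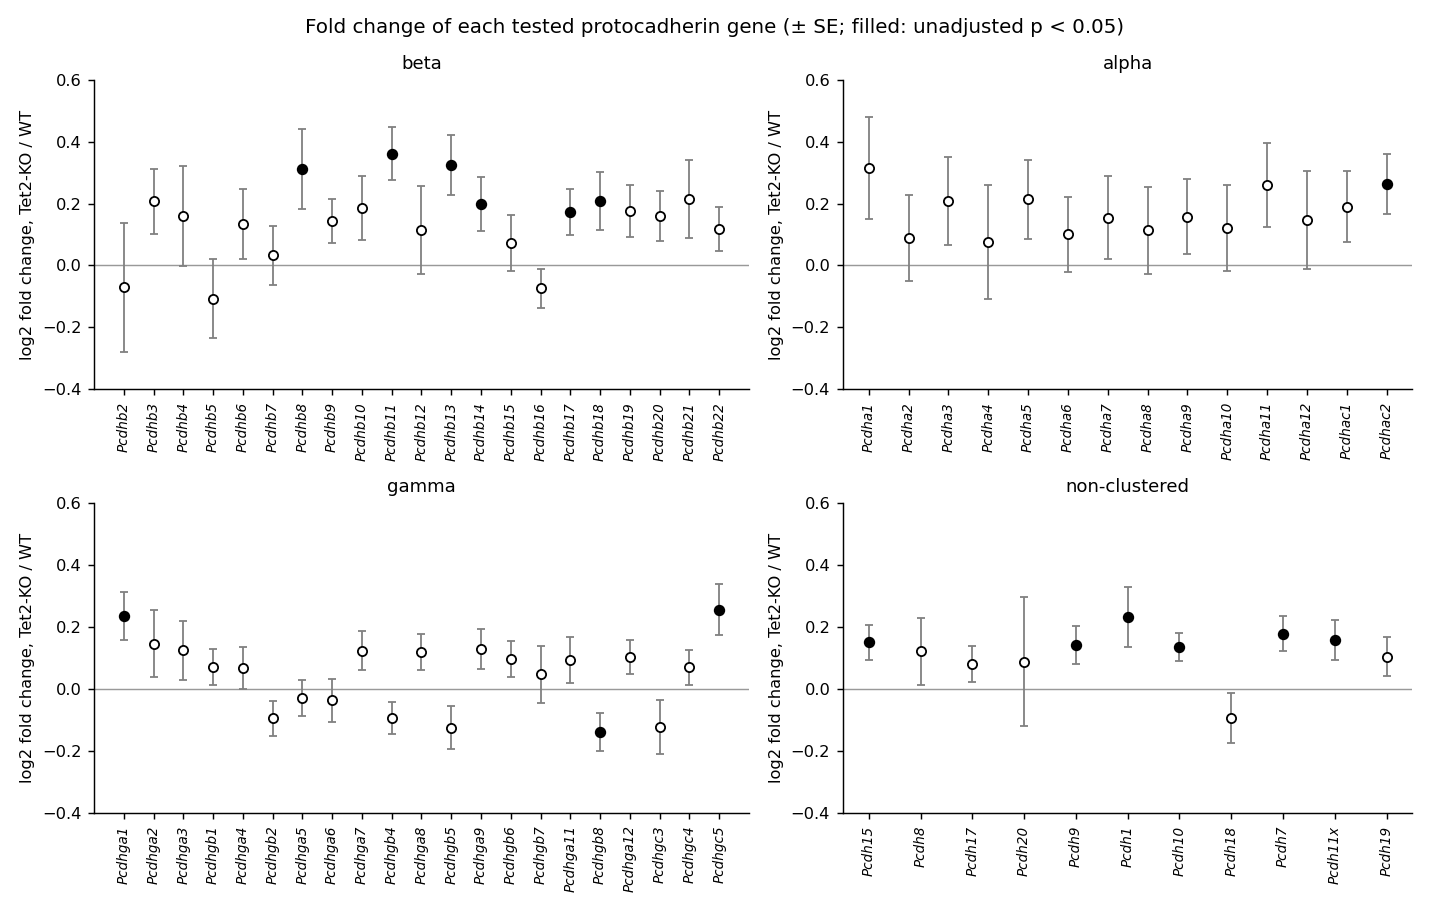
Log2 fold change of *Tet2*-KO over WT with its standard error for the 67 tested genes, in order along each cluster (beta, alpha, gamma) and by chromosome for the non-clustered genes; filled points have an unadjusted edgeR p below 0.05. All 14 alpha genes and 18 of 21 beta genes lie above 0, and 4 of 7 gamma-B genes lie below it.

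Total counts per mouse lay between 12000261 and 15340787 in WT and between 12625047 and 21049763 in *Tet2*-KO mice. WT replicate 2 and *Tet2*-KO replicates 5 and 6 stood apart from their groups in protocadherin or marker levels. The counts of markers that follow stand against backgrounds of 10.8% of all genes higher and 12.2% lower. Of the 12 neuron markers, 10 were higher at an unadjusted p below 0.05 with *Tet2*-KO BM cells, and their summed level lay between 4509 and 6276 CPM in WT and between 5851 and 7606 CPM in *Tet2*-KO mice, with WT replicate 2 at 4509 and the other WT mice at 5781 or more. Of the 5 cortex markers 3 were higher (234.5 to 371 CPM in WT, 312 to 447 in *Tet2*-KO mice), and WT replicate 2 was again lowest. Of the 5 activated phagocyte markers 4 were lower, between 1029 and 2702 CPM in WT and between 60.7 and 1521 CPM in *Tet2*-KO mice, where replicate 5 held the highest value, and of the 5 fibroblast and meninges markers all 5 were lower (488 to 1178 against 88.2 to 639 CPM). Among 8 microglia markers 1 was lower (808 to 1416 against 384.5 to 1026 CPM), among 5 oligodendrocyte precursor markers 2 were lower (338 to 478 against 310 to 392 CPM), and among 6 endothelial markers 3 were lower (203 to 253 against 182 to 221 CPM). For astrocytes 1 of 6 markers was higher, but 2 of the 6 had a log2 fold change above 0 and the median was -0.12. For striatum 1 of 5 was higher, for cerebellum 1 of the 3 tested, and for thalamus 1 of 4 was higher and 1 lower. For choroid plexus 1 of 4 was lower, and for oligodendrocytes 0 of 5 passed. No marker of any list was at 0 in all mice, a low bar that does not show how far each cell type was represented. The part of these cell types in the protocadherin results was not tested, and in whole tissue fewer cells of a type and less RNA per cell cannot be told apart.

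**Figure D3:**
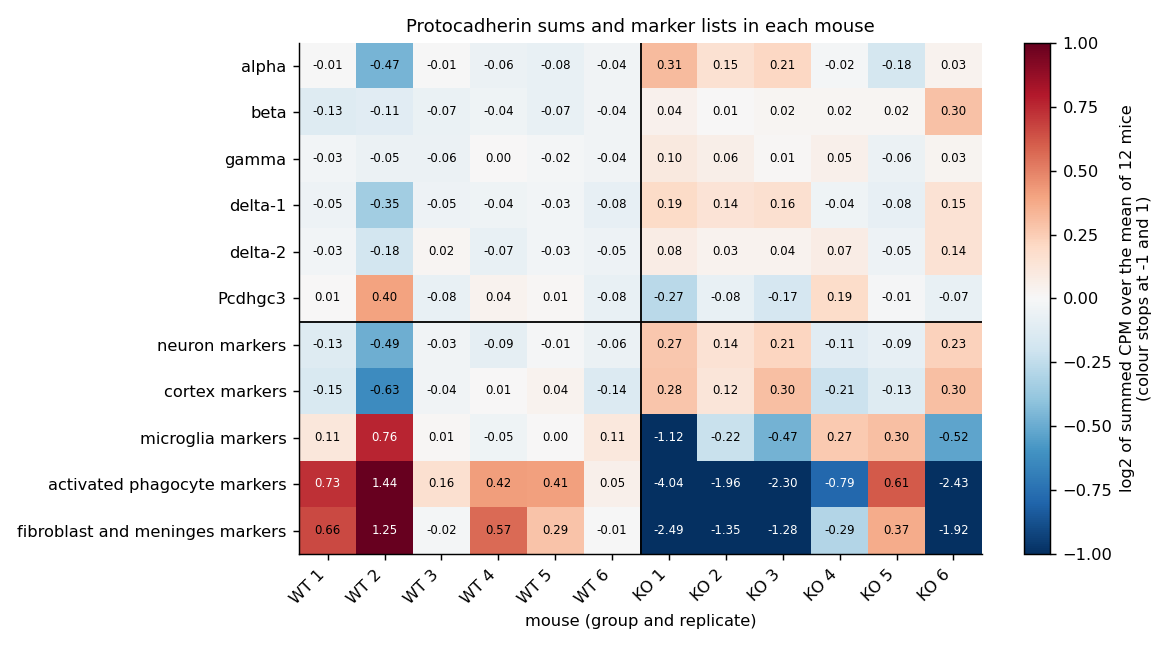
Log2 of the summed CPM of protocadherin groups, of *Pcdhgc3* and of 5 marker lists in each mouse, relative to the mean of the 12 mice; columns are mice by group and replicate, and colours stop at -1 and 1. WT replicate 2 is low in alpha (-0.47), delta-1 (-0.35) and neuron markers (-0.49) and high in phagocyte markers (1.44), and *Tet2*-KO replicate 6 is high in beta (0.30).

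The alpha cluster had a higher mean summed level with *Tet2*-KO BM cells, with the highest values in *Tet2*-KO replicates 1 to 3, and 1 of its 14 genes, *Pcdhac2*, had an unadjusted p below 0.05. The summed level in the WT mice was 112, 81.4, 112, 108, 107 and 110 CPM, and in the *Tet2*-KO mice 140, 125, 130, 111, 99.5 and 115 CPM. The groups overlapped, with replicate 5 of the *Tet2*-KO group below 5 WT mice and 4 *Tet2*-KO mice above every WT mouse. The mean was 105 ± 11.8 CPM for WT and 120 ± 14.4 CPM for *Tet2*-KO mice (SD, n = 6 each), a ratio of 1.14. All 14 genes had a log2 fold change above 0, with a median of 0.16, and 7.14% of them were called higher, below the background of 10.8%. WT replicate 2 was the lowest of the 12 mice in 9 of the 14 genes. Without it the ratio of the means was 1.09 and the median log2 fold change 0.086.

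*Pcdhac2*, the C-type gene required for the even spread of serotonergic axons, held 31.9% of the alpha counts in WT and 33.5% in *Tet2*-KO mice. It was at 35.7, 25.4, 35.4, 33.8, 35.7 and 35.1 CPM in the WT mice and at 46.9, 43.2, 42.2, 36.7, 32.3 and 39.8 CPM in the *Tet2*-KO mice. Every *Tet2*-KO mouse but replicate 5 was above every WT mouse. This was a log2 fold change of 0.26 (SE 0.096, edgeR unadjusted p = 0.0147, adjusted p = 0.145), and 0.19 without WT replicate 2, and the unadjusted p was below 0.05 in all 12 fits that each left out 1 mouse. *Pcdhac1*, the other C-type gene, was at 7.82 ± 1.05 CPM in WT and 8.91 ± 1.32 in *Tet2*-KO mice (SD, n = 6 each; difference of 0.19 in log2, adjusted p = 0.337 by edgeR). Of the other 12 alpha genes, which are chosen stochastically by single neurons, *Pcdha1* had the largest difference, 0.32 on the log2 scale (SE 0.17, edgeR adjusted p = 0.264), from 2.40 ± 0.417 to 2.98 ± 0.633 CPM (SD, n = 6 each). *Pcdha11* followed at 0.26 (SE 0.14, edgeR adjusted p = 0.267). The most counted of these, *Pcdha12* and *Pcdha6*, had log2 fold changes of 0.15 (SE 0.16) and 0.10 (SE 0.12).

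**Figure D4:**
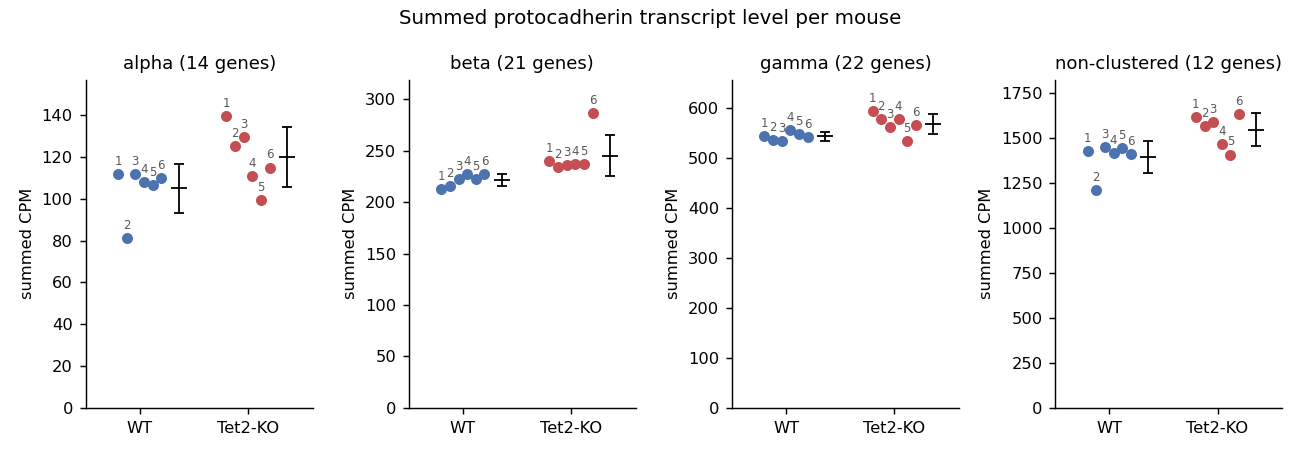
Summed level in CPM of the alpha, beta, gamma and non-clustered protocadherin genes in each mouse (points, numbered by replicate) with mean and SD of each group (black). All 6 *Tet2*-KO mice lie above the 6 WT mice in the beta sum (234 CPM or more against 227 or less), WT replicate 2 is lowest in the alpha and non-clustered sums, and *Tet2*-KO replicate 6 is highest in the beta sum.

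The beta cluster was the cluster in which the summed level of the groups did not overlap. The sum was 213, 216, 223, 227, 222 and 227 CPM in the WT mice and 240, 234, 236, 237, 237 and 286 CPM in the *Tet2*-KO mice. Replicate 6 of the *Tet2*-KO group stood apart at 286, and it was the highest of all mice in 14 of the 21 genes. The mean was 221 ± 5.80 CPM for WT and 245 ± 20.2 CPM for *Tet2*-KO mice (SD, n = 6 each), a ratio of 1.11, and 237 CPM and 1.07 without replicate 6. WT replicate 2 was at 0.97 of the mean of the other WT mice here, whereas it was at 0.742 in the alpha cluster. By gene, 18 of 21 log2 fold changes were above 0 with a median of 0.16, and 0.11 without *Tet2*-KO replicate 6. At an unadjusted p below 0.05, 6 genes were higher (28.6%, background 10.8%) and none of the 21 was lower. Without *Tet2*-KO replicate 6, only *Pcdhb11* and *Pcdhb13* of these 6 kept that level (background of that fit 8.24%).

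*Pcdhb11* had the smallest p of all protocadherin genes. It was at 7.67, 8.32, 9.48, 7.97, 7.67 and 10.2 CPM in the WT mice and at 11.2, 10.5, 11.6, 10.5, 10.98 and 11.1 CPM in the *Tet2*-KO mice, so that the groups did not overlap. The log2 fold change was 0.36 (SE 0.085, edgeR unadjusted p = 0.000642, adjusted p = 0.110), a fold of 1.285. It lay between 0.33 and 0.42 with each mouse left out in turn, and replicate 6 of the *Tet2*-KO group was not the highest. *Pcdhb13*, its near neighbour on the chromosome, was at 9.78, 8.03, 9.12, 7.97, 8.49 and 8.33 CPM in the WT mice and at 11.5, 10.4, 10.4, 8.79, 10.8 and 13.2 CPM in the *Tet2*-KO mice. Replicate 4 of the *Tet2*-KO group lay within the WT range and the other 5 above it (log2 fold change 0.33, SE 0.097, edgeR unadjusted p = 0.00411, adjusted p = 0.121). These 2 genes kept an unadjusted p below 0.05 in all 12 fits with 1 mouse left out.

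The remaining 4 beta genes at that level all lost it when *Tet2*-KO replicate 6 was left out, and each also without certain other single mice. *Pcdhb8* was at 4.87 ± 0.862 CPM in WT and 6.05 ± 0.796 in *Tet2*-KO mice (SD, n = 6 each), which differ in log2 by 0.31 (SE 0.13, edgeR adjusted p = 0.175). Its unadjusted p was below 0.05 in 6 of the 12 fits, and 0.0595 with edgeR without *Tet2*-KO replicate 6. *Pcdhb14*, the beta gene with the most counts, was at 20.2 to 24.2 CPM in WT mice and at 23.9 to 25.0 CPM in 5 *Tet2*-KO mice, with replicate 6 at 34.1. Its log2 fold change was 0.20 (SE 0.087, edgeR unadjusted p = 0.0359, adjusted p = 0.188), and 0.11 without that replicate (edgeR unadjusted p = 0.0720). *Pcdhb17* and *Pcdhb18* had log2 fold changes of 0.17 and 0.21 (SE 0.076 and 0.093), which were 0.12 and 0.15 without *Tet2*-KO replicate 6 (edgeR unadjusted p = 0.0928 and 0.106). *Pcdhb19*, among the most counted, was at 21.1 ± 2.09 and 23.9 ± 2.72 CPM (SD, n = 6 each; difference of 0.18 in log2, adjusted p = 0.222 by edgeR). *Pcdhb16* had a log2 fold change of -0.074 (SE 0.062, edgeR adjusted p = 0.506), and its share of the beta counts was 10.5% ± 0.889 in WT and 9.03% ± 0.573 in *Tet2*-KO mice (SD, n = 6 each). *Pcdhb2* and *Pcdhb5* were the other beta genes below 0.

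The gamma cluster had the smallest ratio of summed levels of the 3 clusters, and its genes lay on both sides of 0. The sum was 545, 535.5, 534, 557, 548 and 542 CPM in the WT mice and 594, 579, 562, 578, 535 and 567 CPM in the *Tet2*-KO mice, with replicate 5 of the *Tet2*-KO group within the WT range and the other 5 above it. The ratio of the means was 1.05. Of the 11 tested gamma-A genes 9 had a log2 fold change above 0 (median 0.12; 10 with upper quartile scaling, where *Pcdhga5* turned from -0.028 to above 0), whereas of the 7 gamma-B genes 4 were below 0 (median -0.094, and -0.060 with upper quartile scaling). At an unadjusted p below 0.05, 2 gamma genes were higher (9.52%, background 10.8%) and 1 was lower (background 12.2%). The difference between the gamma-A and gamma-B genes was not tested.

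*Pcdhga1*, the gene at the start of the cluster, was at 8.65, 7.82, 9.48, 8.81, 9.40 and 8.65 CPM in the WT mice and at 9.67, 9.57, 10.2, 11.3, 11.1 and 10.4 CPM in the *Tet2*-KO mice. The groups did not overlap, by a margin between WT replicate 3 and *Tet2*-KO replicate 2 that was small beside the spread within groups. This was a log2 fold change of 0.24 (SE 0.078, edgeR unadjusted p = 0.00794, adjusted p = 0.128). *Pcdhga7*, which had the most counts among gamma-A genes, was at 27.9 ± 1.17 and 30.4 ± 2.79 CPM (SD, n = 6 each; difference of 0.12 in log2, adjusted p = 0.254 by edgeR). *Pcdhgb8* was at 16.3, 15.5, 17.4, 18.5, 17.2 and 17.4 CPM in the WT mice and at 16.3, 15.9, 15.4, 15.8, 14.7 and 14.9 CPM in the *Tet2*-KO mice. Its log2 fold change was -0.14 (SE 0.061, edgeR unadjusted p = 0.0368, adjusted p = 0.191). Its unadjusted p was below 0.05 in 5 of the 12 fits with 1 mouse left out, and it was 0.129 with upper quartile scaling. As a share of the gamma counts *Pcdhgb8* lay between 2.89% and 3.32% in WT and between 2.62% and 2.75% in *Tet2*-KO mice, the only 1 of 57 clustered genes (1.75%) whose share did not overlap between groups. By CPM, 0.641% of all genes had every *Tet2*-KO mouse below every WT mouse and 0.453% had every one above. No such figure was computed for shares.

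The 3 C-type gamma genes had log2 fold changes of 0.26, 0.070 and -0.12. *Pcdhgc5*, whose protein binds GABA-A receptors, was the most counted gene of all 3 clusters. It was at 92.2, 74.4, 91.0, 92.2, 100.5 and 91.5 CPM in the WT mice and at 119.5, 110, 122, 103, 86.5 and 107 CPM in the *Tet2*-KO mice. All *Tet2*-KO mice except replicate 5 were above every WT mouse, and WT replicate 2 was the lowest. The log2 fold change was 0.26 (SE 0.082, edgeR unadjusted p = 0.00657, adjusted p = 0.125), 0.21 when WT replicate 2 was left out and 0.31 when *Tet2*-KO replicate 5 was. *Pcdhgc4*, which is needed for the survival of neurons, was at 27.4 ± 1.63 and 28.8 ± 1.64 CPM (SD, n = 6 each), which differ in log2 by 0.070 (SE 0.057, edgeR adjusted p = 0.490). *Pcdhgc3*, which promotes dendrite branching, was at 52.0, 68.4, 49.1, 53.1, 52.1 and 49.0 CPM in the WT mice and at 42.8, 49.0, 46.0, 58.9, 51.2 and 49.2 CPM in the *Tet2*-KO mice. This was a log2 fold change of -0.12 (SE 0.088, edgeR adjusted p = 0.422), and -0.043 without WT replicate 2, the mouse that was highest here and lowest in *Pcdhgc5*. Its antisense gene *BC037039* was at 2.08 ± 0.376 CPM in WT and 1.65 ± 0.218 in *Tet2*-KO mice (SD, n = 6 each; difference of -0.33 in log2, adjusted p = 0.213 by edgeR).

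**Figure D5:**
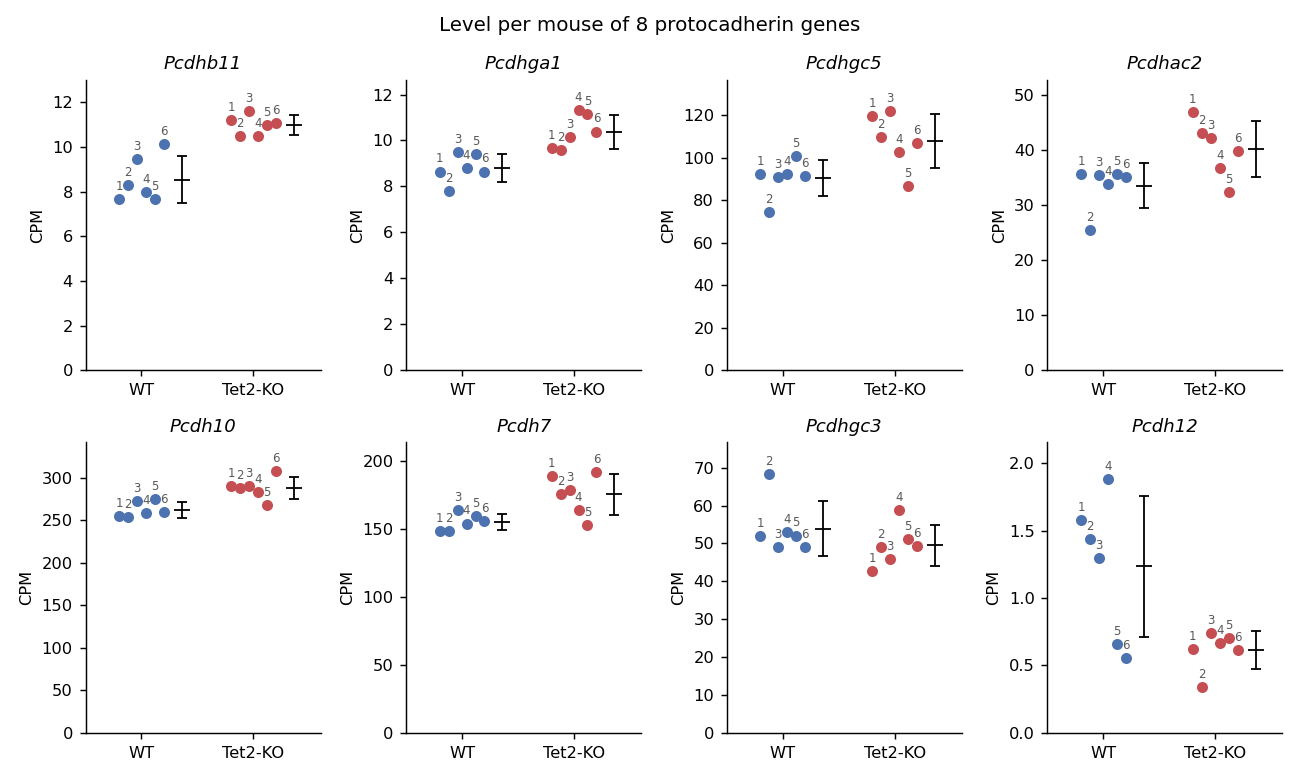
Level in CPM of 8 protocadherin genes in each mouse (points, numbered by replicate) with mean and SD of each group (black). In *Pcdhb11* and *Pcdhga1* all *Tet2*-KO mice lie above all WT mice, in *Pcdhgc3* WT replicate 2 is highest at 68.4 CPM, and in *Pcdh12* WT replicates 5 and 6 lie within the *Tet2*-KO range.

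Among the non-clustered genes, all 4 delta-1 protocadherins had an unadjusted p below 0.05 and were higher with *Tet2*-KO BM cells, as were *Pcdh10* of the delta-2 group and *Pcdh15*. These 6 are 54.5% of the 11 tested (background 10.8%), and none of the 11 was lower at that level. The median log2 fold change was 0.13, and 0.096 without WT replicate 2. Delta-1 proteins carry a motif that binds protein phosphatase 1 alpha, and delta-2 proteins lack it. The delta-1 sum was 763, 620, 759, 766, 773 and 746 CPM in the WT mice and 900, 867, 882.5, 767, 746 and 873 CPM in the *Tet2*-KO mice. The groups overlapped, since *Tet2*-KO replicates 4 and 5 lay within the WT range.

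*Pcdh7* was at 149, 149, 164, 154, 160 and 156 CPM in the WT mice and at 190, 176, 179, 164.5, 153 and 192 CPM in the *Tet2*-KO mice, with all but replicate 5 above every WT mouse. The log2 fold change was 0.18 (SE 0.057, edgeR unadjusted p = 0.00643, adjusted p = 0.124), and WT replicate 2 was not apart. The antisense gene *4932441J04Rik* was at 3.69 ± 0.675 and 3.87 ± 0.674 CPM (SD, n = 6 each). *Pcdh1*, known for its role at epithelial and neuronal contacts, was at 293, 206, 274, 302, 289 and 271 CPM in the WT mice and at 358, 347, 361, 274, 275 and 309 CPM in the *Tet2*-KO mice. The groups overlapped in the *Tet2*-KO replicates 4 and 5 (log2 fold change 0.23, SE 0.097, edgeR unadjusted p = 0.0290, adjusted p = 0.175). Without *Tet2*-KO replicate 1, 2 or 3 the unadjusted p was 0.0649, 0.0615 or 0.0695 with edgeR.

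*Pcdh9* was at 274, 220, 273, 266, 276 and 269.5 CPM in the WT mice and at 306, 295.5, 291, 278, 262.5 and 310 CPM in the *Tet2*-KO mice (log2 fold change 0.14, SE 0.062, edgeR unadjusted p = 0.0352, adjusted p = 0.187). It was 0.096 without WT replicate 2 (edgeR unadjusted p = 0.0670), the lowest mouse, and kept an unadjusted p below 0.05 in 7 of the 12 fits with 1 mouse left out. *Pcdh11x*, on the X chromosome, was at 43.6 to 49.5 CPM in WT mice and at 46.8 to 61.5 CPM in *Tet2*-KO mice, with a log2 fold change of 0.16 (SE 0.064, edgeR unadjusted p = 0.0250, adjusted p = 0.167). Without *Tet2*-KO replicate 6, its highest mouse, the difference was 0.11 (edgeR unadjusted p = 0.0602).

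Several delta-2 proteins recruit the WAVE complex, which builds branched actin. *Pcdh10*, which guides striatal axons, was at 255, 254, 273, 258, 274 and 259.5 CPM in the WT mice and at 290, 288, 291, 283, 268 and 308 CPM in the *Tet2*-KO mice, again with only replicate 5 not above every WT mouse. This was a log2 fold change of 0.13 (SE 0.045, edgeR unadjusted p = 0.00932, adjusted p = 0.131; DESeq2 adjusted p = 0.0414). *Pcdh17*, a synaptic protein of corticobasal circuits, had a log2 fold change of 0.080 (SE 0.058, edgeR adjusted p = 0.427). *Pcdh19*, whose loss causes an X-linked epilepsy, had 0.10 (SE 0.064, edgeR adjusted p = 0.342), with WT replicate 2 low at 80.8 and *Tet2*-KO replicate 6 high at 119 CPM. *Pcdh8*, an activity-induced gene that removes N-cadherin from synapses, had 0.12 (SE 0.11, edgeR adjusted p = 0.532). *Pcdh18* was the only non-clustered gene tested with a value below 0, at -0.093 (SE 0.082, edgeR adjusted p = 0.525).

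*Pcdh15*, a part of the tip link of inner ear hair cells, was at 60.4, 59.5, 63.8, 62.5, 61.2 and 60.1 CPM in the WT mice and at 62.3, 69.0, 73.8, 67.1, 59.7 and 76.2 CPM in the *Tet2*-KO mice. The WT mice lay close together, WT replicate 2 included, and 4 *Tet2*-KO mice were above them (log2 fold change 0.15, SE 0.058, edgeR unadjusted p = 0.0190, adjusted p = 0.153). The adjusted p was 0.0393 with edgeR when *Tet2*-KO replicate 5 was left out. *Pcdh20* was at 16.9 CPM in WT replicate 2 and at 34.7 to 40.2 CPM in the other WT mice, and at 22.7 to 43.7 CPM in the *Tet2*-KO mice. Its log2 fold change of 0.089 (SE 0.21, edgeR adjusted p = 0.842) was -0.050 without that WT mouse.

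*Pcdh12*, the protocadherin of endothelial cells, was rare in this tissue, with 7 to 29 counts per WT mouse and 7 to 13 per *Tet2*-KO mouse. It was at 1.58, 1.43, 1.29, 1.88, 0.659 and 0.555 CPM in the WT mice and at 0.620, 0.340, 0.740, 0.669, 0.706 and 0.616 CPM in the *Tet2*-KO mice. WT replicates 1 to 4 stood above all *Tet2*-KO mice, and WT replicates 5 and 6 lay among them. It was not tested in the main comparison. When no filter was applied, the log2 fold change was -1.04 (SE 0.29, edgeR unadjusted p = 0.00125, adjusted p = 0.114). Of the 6 endothelial markers, *Cldn5* had a log2 fold change of -0.45 (adjusted p = 0.121, edgeR) and *Flt1* one of -0.018 (edgeR adjusted p = 0.893).

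Genes that act with protocadherins were read from 3 lists. Of 22 regulators of promoter choice and DNA methylation, 1 was higher and 2 were lower at an unadjusted p below 0.05 (backgrounds 10.8% and 12.2%). The methyltransferases *Dnmt3b* and *Dnmt3a* had log2 fold changes of -0.39 (SE 0.16, edgeR adjusted p = 0.177) and -0.13 (SE 0.060, edgeR adjusted p = 0.20). *Mau2*, a cohesin loader, had a log2 fold change of 0.055 (SE 0.036, adjusted p = 0.379 by edgeR). The summed level of this list differed little, between 2118 and 2155 CPM in WT and between 2063 and 2172 CPM in *Tet2*-KO mice.

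Of 23 signalling partners and processing enzymes, 7 were higher and 1 was lower (30.4% and 4.35%, backgrounds 10.8% and 12.2%). The kinase *Pak1* was at 275 ± 19.8 and 322 ± 28.2 CPM (SD, n = 6 each; difference of 0.22 in log2, adjusted p = 0.121 by edgeR), and *Wasf3*, a WAVE subunit, had 0.20 (SE 0.064, edgeR adjusted p = 0.125). *Marcks* had -0.25 (SE 0.10, edgeR adjusted p = 0.173) and *Wasf2* -0.38 (SE 0.18, edgeR adjusted p = 0.220). Of the other cadherin genes, 39 of 46 were tested, 14 were higher and 5 lower (35.9% and 12.8%, backgrounds 10.8% and 12.2%). *Cdh4* was at 36.3 ± 2.81 and 45.3 ± 4.41 CPM (SD, n = 6 each; difference of 0.32 in log2, SE 0.070, adjusted p = 0.110 by edgeR), and *Cdh13* had a log2 fold change of 0.27 (adjusted p = 0.110, edgeR). *Cdh11* had -0.23 (SE 0.064, edgeR adjusted p = 0.114) and *Cdh3* -1.11 (SE 0.31, edgeR adjusted p = 0.116). No gene of the 3 lists passed the adjusted threshold of edgeR.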

How the data were processed

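Bulk RNA-sequencing reads of ribosomal RNA-depleted total RNA from 12 brains were trimmed by the authors with Trimmomatic 0.36, aligned to mm10 with STAR 2.5.2b and counted with featureCounts of Subread 1.5.2, uniquely in exons. The paper names the tissue as whole brains in its results and as whole hemispheres in its discussion. The deposited values are whole-number counts per gene, without normalization, for 49315 Ensembl identifiers. The annotation release and strand setting are not given in the sources used here. GENCODE M21, on the same genome, gave symbols for 48970. It names 2 genes *Pcdha11*, and RefSeq positions showed the one that starts at 37005203 to be *Pcdha10*.

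Tests were run in R 4.3.3 with edgeR 4.0.16 (TMM, filterByExpr, robust quasi-likelihood F test, 6 mice per group, no covariates, Benjamini-Hochberg over 20290 genes). The scripts were tested on simulated data with larger fold changes than those of the tested protocadherin genes. That test does not show how well small differences are found. Each standard error was taken from the estimate and its F statistic (estimate over root F). Alternatives used DESeq2 1.42.0, limma 3.58.1, other scalings and filters, a block by replicate number, exact permutation tests on log2(CPM + 0.1), and each mouse left out. The paper states that cages usually held littermates of both groups and that the libraries were sequenced on the same lane. Which mice shared a cage, litter or library batch was not analysed here, and the main model has no term for it. The labels name each mouse as a separate sample. Depth lay between 12000261 and 21049763 counts per mouse.

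The members and lists were chosen with earlier results of these data known. Named were every kept non-clustered gene, the C-type genes, the 3 most counted and the 3 with the smallest p in each cluster, the genes nearest the limit of 50 counts, and of each pathway list the 2 with the smallest p in each direction. The values of 1 gene that this rule takes from the regulator list are not reported here, and it is included in the counts of that list. Other genes named to describe a count or an overlap (*Pcdhb2*, *Pcdhb5*, *Pcdhga5*, *Pcdhga11*, *Pcdhb12*, *Pcdhb17*, *Pcdhb18*, *Pcdha4*, *BC037039*, *4932441J04Rik*, *Gm26672*, *2610316D01Rik*, *Cldn5*, *Flt1*) were chosen after their values were seen.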

Additional observations from a re-analysis of the deposited data

Results flagged for a closer look

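In 68 groups of 6 mice, the levels of the named genes and the 4 sums in either group, 17 held a mouse that stood apart by Dixon's criterion (a gap to the nearest mouse of more than 0.625 of the group's range), where chance flags about 1 in 20 groups. Many of these share genes, so they are not independent.

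WT replicate 2 accounted for 10. It was lowest in the alpha sum (81.4 CPM, others 107 to 112), the non-clustered sum (1210 CPM, others 1410 to 1450), *Pcdh8* (21.9 CPM), *Pcdh20* (16.9 CPM), *Pcdh9* (220 CPM), *Pcdh1* (206 CPM), *Pcdh19* (80.8 CPM), *Pcdhac2* (25.4 CPM) and *Pcdhgc5* (74.4 CPM), and highest in *Pcdhgc3* (68.4 CPM, others 49.0 to 53.1). It was also the WT mouse with the lowest neuron and cortex marker sums and the highest microglia, phagocyte and fibroblast marker sums, and the part of these in its protocadherin levels was not tested.

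*Tet2*-KO replicate 6 accounted for 5, being highest in the beta sum (286 CPM, others 234 to 240), *Pcdhb14* (34.1 CPM, others 23.9 to 25.0), *Pcdhb19* (29.1 CPM, others 21.3 to 23.6), *Pcdha11* (4.54 CPM, others 2.90 to 3.40) and *Pcdh19* (119 CPM, others 104 to 106). The remaining 2 were *Pcdh12* in *Tet2*-KO replicate 2 (0.340 CPM, others 0.615 to 0.740) and *Pcdhgc4* in WT replicate 6 (30.5 CPM, others 25.9 to 27.6).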

How the results depend on the processing

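The number of protocadherin genes past the adjusted threshold, 0 with edgeR, was 2 with the DESeq2 Wald test, 5 with limma-voom with quality weights, and 0 to 6 with 1 mouse left out, above 0 only without *Tet2*-KO replicate 5. The 15 genes higher at an unadjusted p below 0.05 became 24 with upper quartile scaling (background 14.8%, all-gene median 0.043), where none was lower, and 11 to 17 with 1 mouse left out (11 without *Tet2*-KO replicate 6, background 8.24%; 17 without *Tet2*-KO replicate 5, background 13.4%). The 1 lower gene became 0 to 2 with 1 mouse left out: 0 without WT replicate 3, 4, 5 or 6 or *Tet2*-KO replicate 3, 5 or 6, and 2 without *Tet2*-KO replicate 2 or 4. Same-numbered mice showed only weak correlations (between -0.169 and 0.229), which cannot settle whether they shared cages or batches. A block by replicate number gave 14 higher (background 9.48%), 0 lower and 0 past the adjusted threshold. The cluster medians stayed above 0 under every alternative, between 0.086 and 0.20 for alpha, 0.11 and 0.19 for beta, 0.060 and 0.10 for gamma and 0.096 and 0.17 for non-clustered genes. In 551 refits of 29 named genes, none of which passed the adjusted threshold at first, 13 were past it and 2 reversed: *Pcdh20* at -0.054 with limma-voom and at -0.050 without WT replicate 2. On the unadjusted threshold, 14 named genes were past it, and 34 of their 266 refits, in 6 genes (*Pcdh9*, *Pcdhb8*, *Pcdhb14*, *Pcdhgb8*, *Pcdh1* and *Pcdh11x*), were not. The exact permutation test, set against the unadjusted p, lost *Pcdh1* (p = 0.0584) and added *Pcdha11* (p = 0.0411). The length per kb that counts only same-strand overlaps was chosen after seeing the data. The causes were not tested. *Pcdh12* had too few counts for the filter.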

Other observations

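The read-through genes *Gm42416*, *Gm37013* and *Gm37388*, which the annotation draws across the alpha and gamma clusters, had 0 counts in all 12 mice. Reads in exons that they share with protocadherin genes were not counted for either, so this does not show that such transcripts are absent. Among antisense genes of the clusters, *Gm26672*, which lies over *Pcdhga10* to *Pcdhga12* in the gamma cluster, was at 11.2 ± 1.25 CPM in WT and 11.1 ± 0.963 in *Tet2*-KO mice (SD, n = 6 each; difference of -0.012 in log2, adjusted p = 0.957 by edgeR). *Pcdhga10*, which it covers, was at 0.580 ± 0.127 and 0.60 ± 0.130 CPM (SD, n = 6 each). With the strand setting not given, the levels of these genes cannot be compared, since *Pcdhga10* may have no base of its own. *Gm10545*, antisense in the alpha cluster, was at 4.39 ± 0.709 and 4.68 ± 0.517 CPM (SD, n = 6 each; difference of 0.10 in log2, adjusted p = 0.671 by edgeR), and *Gm37165* in the gamma cluster had a log2 fold change of -0.15 (adjusted p = 0.575, edgeR).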
